A study of Mus musculus with 16 samples.

Results

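The ratio of ribosome footprints to RNA-seq counts was measured gene by gene in keratinocytes of hair follicle stem cell organoids. It was used to rank messages by how densely ribosomes lay along their coding sequence. One transcript was kept for each gene, the one with the most footprints. Genes entered the ranking with a mean of at least 10 footprints and 50 RNA-seq counts per library, which left 2259 of 22579 genes. They held 76.1% of all footprints and 59.7% of all RNA-seq counts.

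Organoids of C57BL/6J mouse keratinocytes were grown for 2 weeks and sorted into α6+/CD34− progenitors and α6+/CD34+ hair follicle stem cells (HFSCs). Each population was either left untreated or given N1-acetylspermidine (N1-AcSpd) for the last 72 h. With 2 donor mice this gave 8 lysates, and each lysate had 1 Ribo-seq and 1 RNA-seq library. N1-AcSpd is the acetylated form of the polyamine spermidine. All groups shared the strain, the culture system and lysis with cycloheximide, which holds cytosolic ribosomes on the message. The study took keratinocytes from mice of either sex with skin in telogen, the resting phase of the hair cycle, at ages set to fall in that phase. Which of those ages and which sex each of these 2 donors had was not given in the sources used here. Values are means over the 8 lysates with their SD, and they come from 2 mice only.

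A ribosome protects a short stretch of the message it is reading from nuclease, and Ribo-seq counts these footprints. Both assays were read as counted on the coding sequence, so the ratio follows the density of ribosomes along it, not their number per copy. Where reads can be assigned to their message, a higher ratio means that it was loaded with ribosomes more often or held them for longer. The ratio cannot tell these apart, and it also moved with how unique the coding sequence is, as given below. In many mammalian cells the messages for ribosomal proteins and elongation factors, which start with a terminal oligopyrimidine (TOP) tract, are known to move between ribosomes and an untranslated pool. Upstream reading frames and structured, GC-rich 5′ UTRs are known to lower initiation.

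Depth and the match of the libraries to their labels set what could be measured. Ribo-seq libraries held 34467 to 267921 footprints and RNA-seq libraries 21601141 to 31505435 counts. The shallowest was the untreated progenitor library of mouse 1, in which 70 of the 2259 genes had no footprint. A count of 0 there allows up to 87.0 CPM (library-scaled counts), which is 3 counts and covers counting error only. Ratios of single genes correlated between pairs of lysates with r from 0.44 to 0.89 across genes. Pairs with that library gave 0.44 to 0.51 and the other pairs at least 0.65, and genes are not independent replicates. The difference between the 2 mice correlated between footprints and RNA-seq counts at r = 0.12 to 0.28 across genes in 3 of the 4 groups. In treated HFSCs it was −0.23, so in this group the 2 assays went against each other. In RNA-seq the mouse difference of treated HFSCs also correlated negatively with that of each other group (r = −0.71 to −0.27), while the other 3 groups correlated positively among themselves. Whether the mouse labels of these libraries are right cannot be told from the files. The counts of genes called high and low and the 2 comparisons between groups were therefore repeated without both treated HFSC lysates, a choice made after seeing the data. All 8 keratinocyte markers passed the minimum, among them Krt5 with 29084 footprints in all. Fibroblast, endothelial, immune and melanocyte markers had 0 to 5 footprints each over all 8 libraries (17 genes), so none of these 17 was tested.

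Log2 ratios were centred so that the median gene of each lysate was at 0. Mean ratios ranged from −7.33 for mt-Co1 to 4.27 for Cenpx. The middle 80% of genes lay between −1.21 and 1.03, a 2.32-fold lower and a 2.04-fold higher ratio than the median gene. Over genes the mean ratio had an SD of 0.99, against a median SD over lysates of 0.53 for 1 gene. For the 96 genes with at least 100 footprints per library and a coding sequence that is mostly unique in the genome, the median SD was 0.26. With the edgeR quasi-likelihood test and Benjamini-Hochberg adjustment over all 2259 genes, and a change of at least 2-fold, 248 genes had a high ratio (11.0% of those tested) and 326 a low one (14.4%). Of these 574 genes, 504 had the same sign in all 8 lysates. Without both treated HFSC lysates the counts were 241 and 310.

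The minimum of 10 footprints itself shaped the ranking. A gene at the median ratio needed 1452 RNA-seq counts to yield 10 footprints, so genes of lower abundance passed only where their ratio was high. Of the 353 genes tested below that abundance, 340 had a ratio above the median gene, 129 were called high and 0 were called low (edgeR). Just outside the minimum lay Ufc1, Wdr46 and Zc3h13 with 79 footprints over the 8 libraries each. Just inside lay Acaa2, Ankle2 and Bptf with 80 each. Genes with at least 5000 RNA-seq counts were therefore also examined without a footprint minimum, by the ratio of their mean CPM. Of 806 such genes, 531 had at least 80% unique coding sequence, and only 45 of the 531 fell under 10 footprints.

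**Figure D1:**
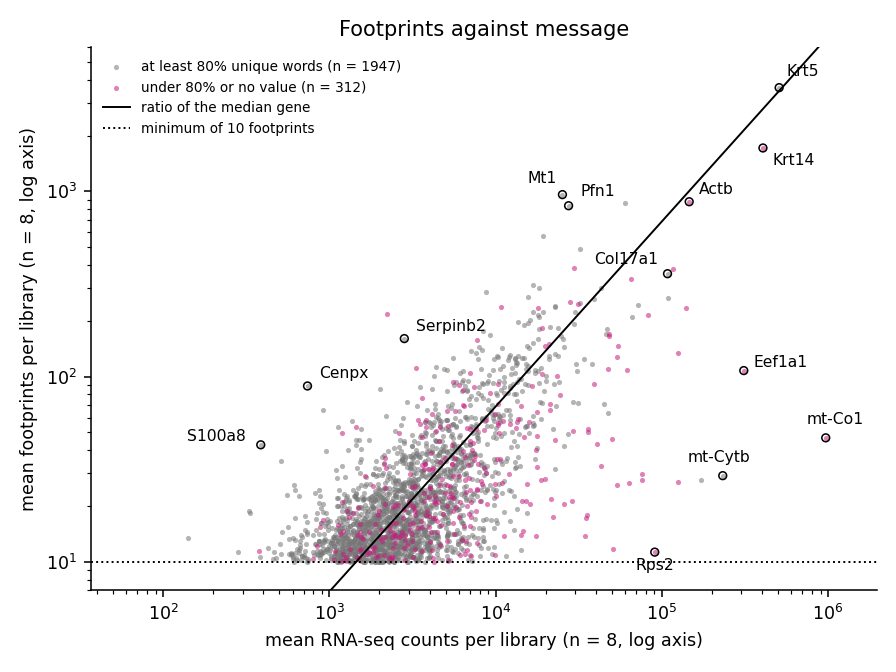
Mean footprints per library (vertical, log axis) against mean RNA-seq counts per library (horizontal, log axis) for the 2259 genes tested, 1 point per gene. The solid line is the ratio of the median gene and the dotted line the minimum of 10 footprints. Cenpx, S100a8 and Serpinb2 lie above the line, Krt5 lies on it, and Eef1a1, Rps2 and the mitochondrial messages lie far below it. Genes with under 80% unique words are pink, among them Eef1a1, Rps2 and mt-Co1, while mt-Cytb, mt-Nd5 and mt-Nd6 are well mapped.

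A second limit was the sequence itself. A footprint is about as long as a 28-base word, and a word found at several places in the genome cannot be assigned to 1 gene. The share of such words that are unique was computed for each coding sequence. Among the 806 abundant genes the median ratio was −5.95 on the log2 scale for 130 genes with under 20% unique words, −1.35 for 68 genes with 20 to 50% and −0.51 for 442 genes with at least 95%. Gapdh, a glycolytic enzyme often used as a reference, had 0 footprints in 8 libraries against a mean of 88956 RNA-seq counts, and 5.7% of its words were unique. Genes with at least 80% unique words are called well mapped here. They numbered 1947, with 219 called high (11.2%) and 230 called low (11.8%).

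Sequences around the start codon are given for well-mapped genes with at least 21 bases of 5′ UTR at the ends of the ranking, because initiation begins there. They run from 21 bases before the start codon to 3 bases after it, from GENCODE M21 transcripts on GRCm38, 5′ to 3′ on the coding strand, with the start codon in capitals. Those of 4 genes among the highest ratios were:
S100a8: gaaaggaaatctttcgtgacaATGccg
Jagn1: taggggccttagttctgtacaATGgcg
Ndufa1: cgtgcgagtaacggtgcggagATGtgg
Cited2: gcaaagacggaaggactggaaATGgca
Those of 4 genes among the lowest ratios were:
Cep170b: gcaggcctcctcggtgccaagATGagc
Dusp7: ggccccggccccgggatccccATGaaa
Fam120a: gcgcgccccgccgccgccgccATGggc
Ybx3: cggagagagcggagaggcggcATGagc

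The position 3 bases before the start codon held A or G in 93.9% of the 361 highest well-mapped genes, in 91.1% of the 1085 genes between and in 88.6% of the 361 lowest. An A stood there in 58.4%, 50.4% and 47.6% of them. A G directly after the start codon was present in 54.3%, 54.9% and 53.7%. These shares describe the transcripts, and no test was run on them. The sequences shown above are examples only. Alg14 and Hypk, also among the highest ratios, have a C 3 bases before the start codon.

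The well-mapped genes with the 12 highest ratios had coding sequences of 171 (1500011K16Rik) to 1248 bases (Serpinb2). Of these, only Serpinb2, with a mean of 2821, had more than the 1452 RNA-seq counts that yield 10 footprints at the median ratio. The others could hardly have entered the ranking without a high ratio, so their p-values and signs are no separate support. Cenpx (chr11:120710942-120713738), a centromere protein of the CENP-S complex, had ratios of 4.09 and 3.75 in untreated progenitors, 5.33 and 3.78 in HFSCs, 4.13 and 4.45 in treated progenitors and 4.44 and 4.14 in treated HFSCs. Its mean of 4.27 ± 0.50 was a 19.2-fold higher ratio than that of the median gene (edgeR adjusted p = 6.31e-16, higher in 8 of 8 lysates). S100a8 (chr3:90668978-90670035), a calcium-binding protein of inflamed epidermis, followed with 3.98 ± 1.19 (adjusted p = 5.48e-10). Its ratio was between 3.56 and 5.51 in 7 lysates and 1.42 in treated HFSCs of mouse 2. Jagn1, a protein of the endoplasmic reticulum, stood at 3.53 ± 0.49 with values from 3.05 to 4.64. Serpinb2, an inhibitor of plasminogen activators, stood at 3.12 ± 0.64 with 2.36 to 4.07. Alg14 (3.40 ± 1.74) and Hypk (2.96 ± 1.14) each had 1 lysate apart from the rest: untreated progenitors of mouse 1 gave −0.69 and 0.24 where the other 7 lysates gave at least 3.45 and 2.81. The coding exons of Hypk overlap exons annotated to Serf2, and reads there cannot be told apart. Hist1h2ac, a histone, reached 3.95 ± 0.33 with only 10.9% unique words, so footprints of other histone genes cannot be told apart there. The rest of the 12 highest were 2310046K23Rik, Ndufa1, 1500011K16Rik, Cited2 and Fkbp2, from 2.87 down to 2.66, and Ndufb7 at 2.58 was the lowest of the 12 highest that were well mapped.

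The maxima among abundant messages were lower. Genes of low abundance could hardly enter the ranking without a high ratio, so the 2 sets of maxima were not admitted alike. Whether abundance itself goes with the ratio was not tested. Among the 531 well-mapped genes with at least 5000 RNA-seq counts, whose median was −0.53, the highest was Mt1, the metal-binding metallothionein 1. It gave 7686 footprints, and its ratios were between 1.67 and 2.71 (2.26 ± 0.41, 4.79-fold, edgeR adjusted p = 6.94e-11). Pfn1, the actin monomer binding protein profilin 1, gave 6694 footprints and 2.21 ± 0.43 (4.62-fold, adjusted p = 5.5e-12). Tslp, an epithelial cytokine, had the steadiest of these ratios, between 2.01 and 2.44 (2.23 ± 0.17, adjusted p = 5.66e-15). S100a6 gave 2.03 ± 0.28 (adjusted p = 5.13e-13). Each of these 4 was higher than the median gene in 8 of 8 lysates. Ly6d, a surface protein of stratified epithelia, the lysosomal protease Ctsl and the actin-binding Tagln2 followed at 1.67, 1.56 and 1.43 by mean CPM.

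Behind mt-Cytb and mt-Nd5, described below with the mitochondrial genes, 10 nuclear genes had the lowest well-mapped ratios. Tnrc18, a chromatin-binding protein, stood at −3.04 ± 1.23 and Cep170b, a centrosomal protein, at −2.96 ± 0.88 (edgeR adjusted p = 1.22e-10 and 2.63e-12), both below 0 in 8 of 8 lysates. Dusp7, a MAP kinase phosphatase, gave −2.55 ± 0.79 with a 5′ UTR of 88.0% GC. Kmt2d, the histone H3 lysine 4 methyltransferase, gave −2.43 ± 1.09, and its 88 footprints in all were spread over 16767 coding bases. Rnf10, Fam120a, Sh3pxd2a, Arpc2, Ybx3 and Scap completed the list from −2.41 to −2.28. Arpc2 is a subunit of the actin-nucleating Arp2/3 complex, Ybx3 an RNA-binding protein and Scap a sterol-sensing escort of transcription factors. For 8 of these 10 genes the highest of the 8 values came from the shallow untreated progenitor library of mouse 1 (all but Arpc2 and Ybx3), as the plot of single lysates shows. With the minimum on RNA-seq counts alone, lower values appeared that the ranking had not admitted. Lowest of the nuclear genes after Rps12, described below, was Naca, a subunit of the nascent polypeptide-associated complex, whose kept transcript has 6564 coding bases. It gave 27 footprints where the median ratio would give 1109 (exact Poisson 95% interval of the count 17.8 to 39.3). The 91.3% unique words of Naca refer to that long transcript and may not describe the part that the reads came from. Where along it the counts lay was not tested. The insulin-degrading enzyme Ide gave 17 footprints where the median ratio would give 329 (exact Poisson 95% interval of the count 9.90 to 27.2). Papola, the poly(A) polymerase, gave 21 against 374, and the phosphatase Ppp1ca gave 31 against 479. The kinase Akt1 gave 54 against 406 and the GTPase Hras 31 against 278.

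**Figure D2:**
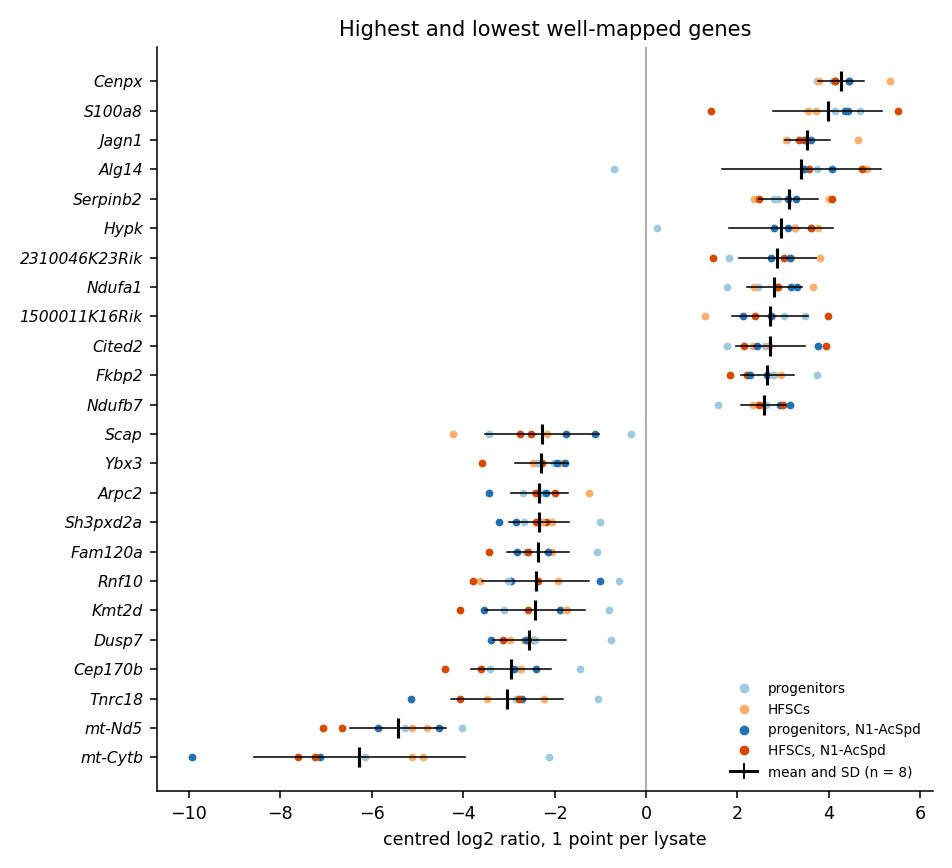
Centred log2 ratio (horizontal) of the 12 highest and 12 lowest well-mapped genes, 1 point per lysate coloured by group, with the mean and SD over 8 lysates in black. S100a8, Alg14 and Hypk each have 1 point far below the other 7, and mt-Cytb spreads from −9.94 to −2.12.

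Genes were then grouped by function. The lists overlap in part. Each is given by its median over tested members, the larger or more distant ones also by how many members were called and by the range of the median over lysates. These stand beside a median of −0.03, 11.0% high and 14.4% low over all genes tested. No test was run on a list. With another minimum count, ratios were centred on the median of the genes then admitted, which moved every gene alike. A mean of 1 count moved Rps27l from −0.15 to 0.31, and 30 footprints moved Gspt1 from 0.09 to −0.15.

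Messages of the ribosome and of elongation had medians far below the median gene, which lay nearer to it over well-mapped members. Of 82 cytosolic ribosomal proteins, 22 were tested, 18 were called low and 0 high, and their median was −3.15 (−3.25 to −2.54 over lysates). As a group the 82 held 10.3 ± 0.54% of RNA-seq counts (SD, n = 8) and 1.11 ± 0.17% of footprints. Rps2 was lowest at −5.56 ± 1.06. Only 3 of the 82 were well mapped, and these 3 held 0.51 ± 0.04% of RNA-seq counts and 0.23 ± 0.03% of footprints, a smaller gap. Uniqueness moved with this result: 18 of the 22 had under 50% unique words. All 60 untested members had at least 4355 RNA-seq counts, 58 of these had under 20% unique words and 30 had no footprint in any library. The part of uniqueness in the result was not tested. Of the 22, 2 were well mapped with a median of −1.42, and 1 of these was called low. The other, Rpl8 with 87.4% unique words, gave −0.87 ± 0.21, short of the 2-fold minimum (edgeR adjusted p = 6.31e-08). Rps12, an untested member with 89.0% unique words and 145 coding bases, had 3 footprints where the median ratio would give 2204 (exact Poisson 95% interval of the count 0.619 to 8.77). Its kept transcript model has no 5′ UTR, and 145 bases are not a whole number of codons, so the model is likely incomplete. Its uniqueness may therefore not stand for the whole message, although Rps12 is 1 of the 3 well-mapped members. Rps27l, a ribosomal protein paralogue with 36.4% unique words, was nearest to 0 with −0.15 ± 0.35 (adjusted p = 0.396).

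The elongation and termination factors had a median of −1.0 (8 tested, 4 low, 0 high, −1.30 to −0.70 over lysates). Eef1a1, which brings aminoacyl-tRNA to the ribosome, gave −4.17 ± 0.54 with 10.3% unique words, and Eef2, which moves the ribosome along the message, gave −2.52 ± 0.39 with 66.8%. Eif5a, the factor that carries hypusine made from spermidine, gave −1.01 with 52.5%. The 3 well-mapped members were Etf1 (−0.45), Eef1d (−0.23) and Gspt1 (0.09), and their median was −0.23. Over the 2 well-mapped members with at least 5000 RNA-seq counts and no footprint minimum it was −0.34, above the −0.53 of all such genes. Non-ribosomal TOP messages had a median of −1.51 (14 tested, 10 low, 0 high, −1.94 to −0.98 over lysates). Their medians were −1.61 to −0.98 in lysates of mouse 1 and −1.94 to −1.64 in those of mouse 2. How many lists differed by mouse was not counted. Of their 4 well-mapped members Eif3f was called low at −1.63, while Eif3l (−0.83), Rack1 (−0.67) and Eef1d were not called. Pabpc1, the cytoplasmic poly(A)-binding protein, was at −3.89 ± 1.31 with 46.0% unique words. Tpt1, another TOP message, had 33 footprints in all against a mean of 87719 RNA-seq counts and 0% unique words.

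Initiation factors were spread around a median of −0.35 (28 tested, 9 low, 1 high). Eif4g2, a relative of the scaffold eIF4G, was the lowest well-mapped member at −2.21 ± 0.42 (adjusted p = 1.47e-11). Eif4h, a partner of the helicase eIF4A, was the only one called high, at 1.93 ± 0.29 with 1.39 to 2.26 over lysates. The subunits of eIF3 ran from −1.63 (Eif3f) to 0.61 (Eif3a). Ribosome biogenesis factors sat at the median (0.03, 47 tested), with Tcof1 low at −1.58 and Nop16 high at 1.26, and aminoacyl-tRNA synthetases did too (0.15, 20 tested, Qars low at −1.12 and Hars high at 1.16).

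**Figure D3:**
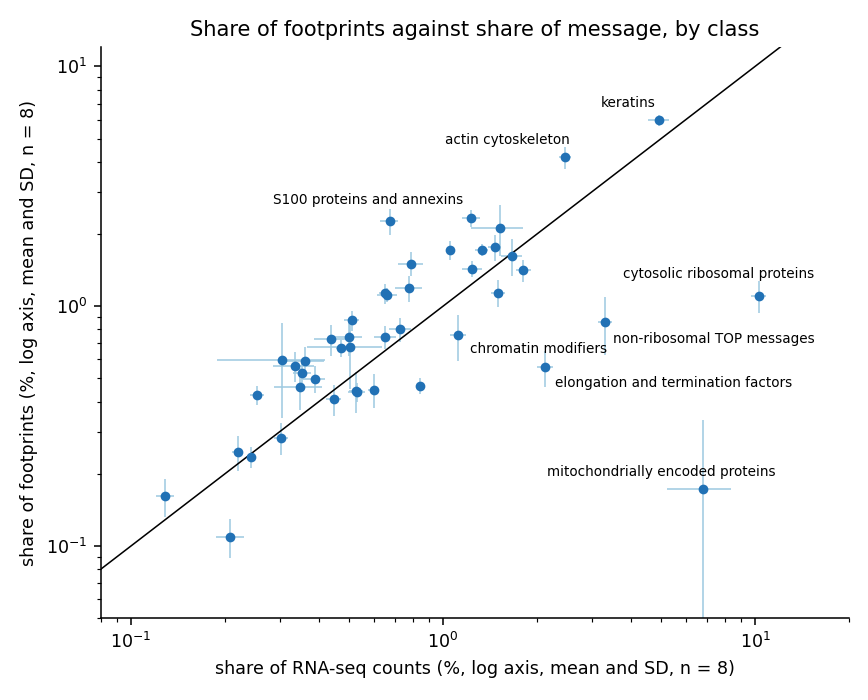
Share of all footprints (vertical, log axis) against share of all RNA-seq counts (horizontal, log axis) for each class, all members included, mean and SD over 8 libraries; the line marks equal shares and error bars that reach below the axis are clipped. Cytosolic ribosomal proteins and mitochondrially encoded proteins lie far below the line, and S100 proteins and annexins, with 2.26% of footprints and 0.67% of RNA-seq counts, lie above it.

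The mitochondrially encoded proteins, which are made by the ribosomes of the mitochondrion, had the lowest ratios of any class. Whether the lysis and the size selection of footprints captured those ribosomes as fully as cytosolic ones was not tested. The ratios of this class may therefore not be comparable with those of nuclear genes. Its messages held 6.79 ± 1.56% of RNA-seq counts and 0.17 ± 0.20% of footprints. Of 13 members 4 were tested and all 4 were called low, with a class median of −5.85 (−7.60 to −3.07 over lysates). mt-Cytb, the cytochrome b of complex III, is 90.7% unique and gave −2.12 and −6.16 in progenitors, −5.11 and −4.89 in HFSCs, −7.12 and −9.94 in treated progenitors and −7.62 and −7.25 in treated HFSCs. The 4 treated lysates were all lower than the 4 untreated ones. mt-Nd5 stood at −5.42 ± 1.05, and mt-Nd1 with 100% unique words had 59 footprints where the median ratio would give 9310. mt-Nd6, read from the other strand, was higher at −1.97 ± 1.86. The share of footprints from mitochondrial messages was 0.65% in untreated progenitors of mouse 1 and at most 0.19% in the other libraries.

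Nuclear genes for mitochondria lay near or above the median gene, by an amount that depended on the genes admitted. The respiratory chain and ATP synthase had a median of 0.23 (60 of 77 tested, 0.13 to 0.47 over lysates), with 17 called high and 4 low. Among the 17 were the complex I subunits Ndufa1 (2.81 ± 0.60), Ndufb7 (2.58), Ndufb6 (2.51) and Ndufa13 (1.94). The subunits Ndufs1 (0.07), Ndufv1 (0.04), Cyc1 (−0.04) and Atp5b (−0.04) sat at the median gene, and Uqcrc1 was low at −1.24. Compared with genes of like coding length, the class median was −0.03, and over its 10 well-mapped members with at least 5000 RNA-seq counts and no footprint minimum it was −0.18, beside −0.53 for all 531 such genes. Mitochondrial ribosomal proteins had a median of 0.58 (16 of 78 tested, 4 high, 0 low), with Mrps28 highest at 1.40 and Mrpl13 lowest at −0.60, and 0.14 against genes of the same length. When the minimum was lowered to a mean of 1 count, which moved all genes upward alike, 74 of them were measured and the median was 0.12. The citric acid cycle sat at 0.01 (14 tested), with Mdh1 alone high at 1.65.

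S100 proteins and annexins were the highest class that had at least 5 tested members. These calcium-binding proteins are abundant in keratinocytes and in the cornifying epidermis. All 12 tested members were well mapped, 8 were called high and 1 low, and the median was 1.03 with 1.01 to 1.41 over lysates. Their footprints made up 2.26 ± 0.27% of the total against 0.67 ± 0.05% of RNA-seq counts. Anxa2, the most abundant, had a ratio between 0.84 and 1.13 in the 8 lysates (1.01 ± 0.09, edgeR adjusted p = 7.89e-10). Anxa1 (1.03), Anxa5 (1.28), Anxa3 (1.30) and Anxa8 (1.41) lay close together, while Anxa7 (−0.22) was not called and S100a16 was low at −1.19. The median was 0.90 relative to genes of the same coding length, and 1.03 over the 8 members with at least 5000 RNA-seq counts and no footprint minimum, where all 531 genes had −0.53.

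Keratins were spread on both sides of the median gene (8 tested, median −0.81, −1.19 to −0.43 over lysates, 1 high, 4 low). Their medians were −0.67 to −0.43 in lysates of mouse 1 and −1.19 to −0.80 in those of mouse 2. Krt5, the type II keratin of basal cells, had 29084 footprints, the most of any gene, and ratios from −0.10 to 0.25 (0.10 ± 0.11, edgeR adjusted p = 0.32). Krt15, a keratin of the hair follicle bulge, gave 0.17 and 0.84 in progenitors, 1.07 and 0.74 in HFSCs, 0.86 and 0.44 in treated progenitors and 0.65 and 1.2 in treated HFSCs (0.75 ± 0.33). Krt1, a keratin of differentiating layers, was high at 1.39 ± 0.78 (adjusted p = 0.00152). These 3 were the well-mapped keratins, and their median was 0.75, so the sign of the class median turned with the mapping limit. With a mean of 1 count as the minimum it was 0.44 over 12 keratins, but that setting moved all genes upward alike. Krt14 (−0.61), Krt17 (−1.0), Krt16 (−1.60), Krt6a (−2.08) and Krt6b (−3.07) were lower, with 31.1 (Krt6b) to 77.9% (Krt17) unique words. The part of uniqueness in this order was not tested.

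Hemidesmosomes, integrins and basement membrane, which anchor basal cells, had a median of −0.38 (21 tested, 5 low, 0 high). Itga6, the α6 integrin used in the sort, was low in every lysate, from −1.76 to −1.03 (−1.44 ± 0.29, adjusted p = 1.49e-10). Its partner Itgb4 gave −1.05 ± 0.40, and Col17a1, the transmembrane collagen of hemidesmosomes, gave −0.95 ± 0.32, short of the 2-fold minimum. Lamb3 (−0.10) and Itgb1 (−0.07) sat at the median gene. Relative to genes of the same coding length the class stood at 0.15, and over its 14 well-mapped members with at least 5000 RNA-seq counts and no footprint minimum at −0.79, below the −0.53 of all such genes. Desmosomes and adherens junctions had a median of −0.21 (15 tested, 4 low, 0 high), from Nectin1 at −1.80 and the plakin Dsp at −1.37 to β-catenin (Ctnnb1) at 0.52. Against genes of like coding length this median was 0.18, so its direction turned. Cornified envelope and late differentiation proteins had 0.22 (14 tested, 3 high, 0 low), with Asprv1, Cnfn and Calm4 at 1.44, 1.35 and 1.18. The actin cytoskeleton was mixed (−0.16, 40 tested, 4 high, 7 low), with 0.08 over its well-mapped members. Arpc2 and Actr3 (−2.62, 25% unique) of the Arp2/3 complex were low, whereas its subunit Arpc3 was high at 1.22 and Tpm2 and Tagln2 were high at 1.41 and 1.47. Tubulins and microtubule motors had −0.35 (18 tested, 3 high, 4 low), with the spectraplakin Macf1 at −1.86.

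Chromatin modifiers, ubiquitin ligases and signalling receptors had medians below the median gene, while the sign for transcription factors and immediate early regulators varied. Chromatin modifiers had a median of −0.68 (25 of 82 tested, 10 low, 0 high, −1.15 to −0.25 over lysates), with Kmt2d, Srcap (−2.02), Nsd1 (−1.89) and Arid1a (−1.72) among the lowest and Chd1 highest at 0.23. Over the 14 well-mapped members with at least 5000 RNA-seq counts, without the footprint minimum, the median was −1.83, beside −0.53 for all such genes. Ubiquitin ligases of the cullin and HECT families had −1.10 (13 tested, 7 low, 0 high), among them Huwe1 (−1.60) and Trip12 (−1.53). A list of Notch and Wnt pathway genes, EGF family members and receptors of other growth factors had −0.84 (14 tested, 5 low, 0 high). Of the 5 called low, Jag2 (−1.34) and Notch1 (−1.17) are a Notch ligand and receptor. Fgfr2 (−1.42), Igf1r (−1.33) and Tgfbr2 (−1.09) are receptors for FGF, IGF and TGF-β, and no gene of the Wnt pathway or EGF family was called. The coding sequences of these 3 classes are long, with medians of 4665, 6078 and 2907 bases. Against genes of like coding length the medians were −0.24, −0.42 and −0.39. Transcription factors of the epidermis and hair follicle had −0.37 (12 tested, 1 high, 2 low), with −0.68 to 0.26 over lysates and 0.24 over the 5 with at least 30 footprints. Trp63, the master regulator of stratified epithelia, was at −0.12 ± 0.21 and Sox9, a factor of HFSCs, at 0.48 ± 0.58, neither called. Ets2 was high at 1.25, and Cebpb and Klf5 were low at −1.21 and −1.05. Nuclear pore and transport proteins had −0.37 (31 tested, 7 low, 1 high), with the exportins Xpo1 and Xpo7 at −1.13 and −1.01. Immediate early and stress-induced regulators had −0.20 (21 tested, 3 high, 5 low), with −0.42 to 0.21 over lysates. Their median was 0.20 over 32 genes when the minimum was a mean of 1 count, which moved all genes upward alike. It was 0.12 over 8 genes when the minimum was 30 footprints, which moved all genes downward alike. The antiproliferative Btg1 was lowest at −2.04 with 58.1% unique words. The RNA-binding Zfp36l2 (−1.82) and Zfp36l1 (−1.76), whose coding exons overlap other annotated genes, and the transcription factors Jun (−1.37) and Egr1 (−1.2) were low too, while Id3 (1.40), Cdkn1a (1.34) and Id1 (1.19) were high.

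**Figure D4:**
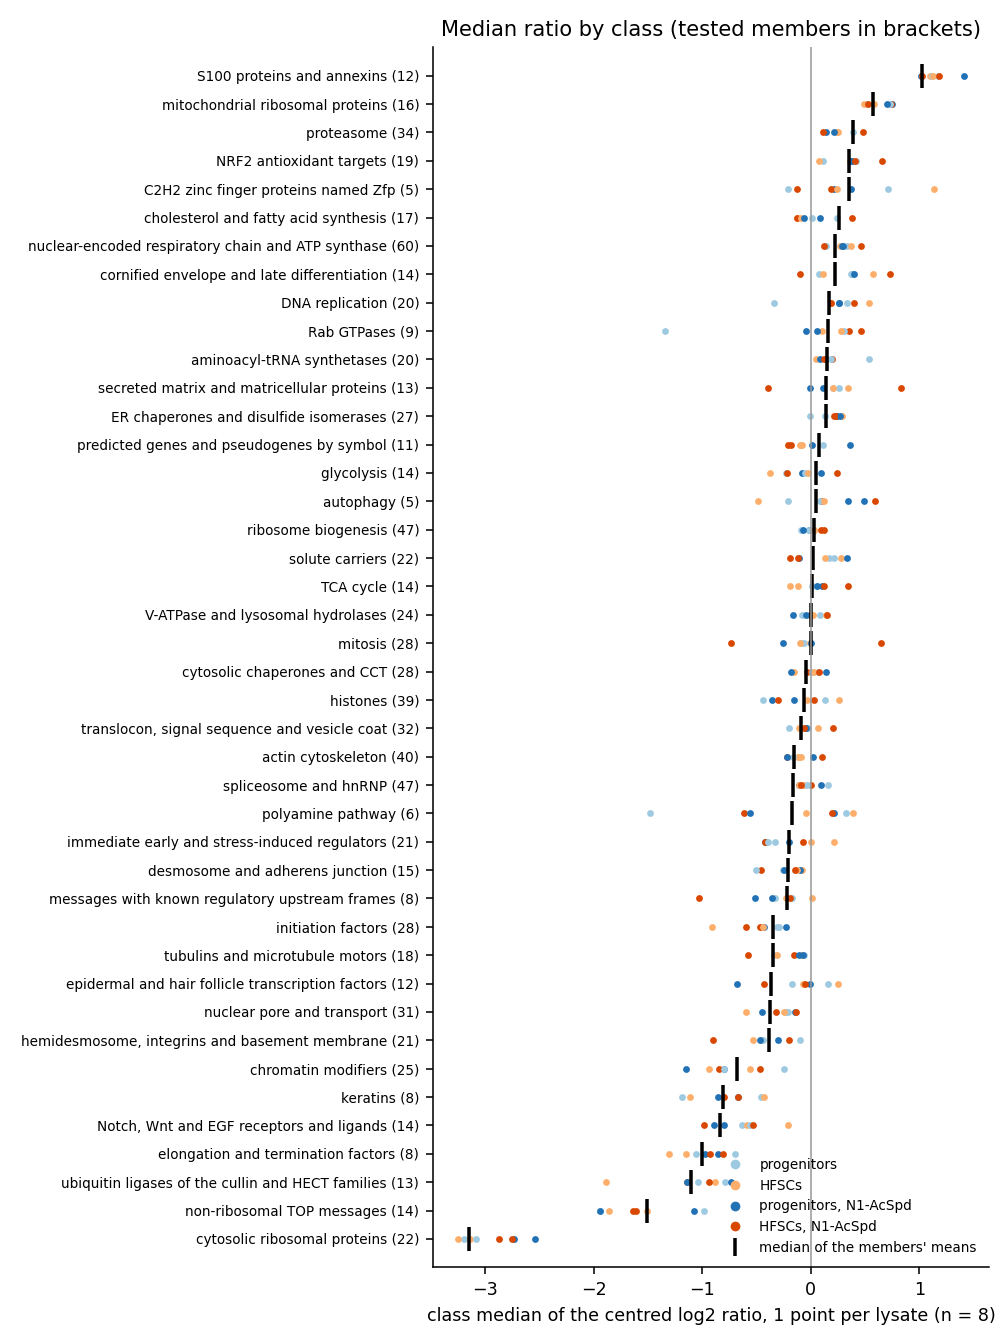
Median centred log2 ratio (horizontal) of each class with at least 5 tested members, 1 point per lysate coloured by group, and the median of the members' means as a black bar; the number tested is in brackets. The order runs from cytosolic ribosomal proteins at −3.15 to S100 proteins and annexins at 1.03, and the mitochondrially encoded class with 4 tested members is not drawn.

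Other metabolic and housekeeping classes lay near the median gene. The proteasome had 0.39 (34 tested, 3 high, 2 low), where Psmd9 was high at 1.43 and the activator Psme4 low at −1.62. Antioxidant targets of NRF2 had 0.35 (19 tested, 5 high, 1 low), led by Mgst1 (2.33) and Prdx4 (1.92). Cholesterol and fatty acid synthesis had 0.26 (17 tested), with the regulator Srebf2 (−1.22) and the epoxidase Sqle (−1.22) low and Pmvk high at 1.49. Glycolysis had 0.05 (14 tested, 2 high, 5 low). The 5 called low, Eno1, Ldha, Gpi1, Pkm and Aldoa, were all under 80% unique, and the 8 well-mapped members had a median of 0.65 with the transporters Slc16a1 and Slc2a1 high at 1.18 and 1.03. Chaperones of the endoplasmic reticulum had 0.14 (27 tested, 3 high, 1 low), from Stt3b at −1.60 to Fkbp2 at 2.66. The translocon and coat proteins had −0.09 (32 tested), cytosolic chaperones −0.04 (28), the spliceosome −0.16 (47) and lysosomal proteins 0.00 (24). DNA replication had 0.17 (20 tested), mitosis 0.00 (28), solute carriers 0.02 (22), secreted matrix proteins 0.14 (13), Rab GTPases 0.16 (9), autophagy 0.05 (5), Zfp zinc finger proteins 0.35 (5 of 391) and predicted genes 0.07 (11). Histones had −0.07 (39 tested, 8 high, 9 low), with a median of 22.1% unique words. Selenoproteins and messages with iron-responsive elements had 3 tested members each, with medians of 0.54 and −0.48, and Fth1, the ferritin heavy chain, gave −0.95. Malat1, Neat1 and other long noncoding RNAs were not tested.

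The tested messages known for upstream reading frames had a median slightly below the median gene, in a direction that depended on the genes admitted. Of 31 listed, 8 were tested, with a median of −0.22 beside −0.03 over all genes tested. Of the 8, 6 were below 0, 2 were called low and 0 high. They ran from Hr at −1.91 to the amino acid transporter Slc7a1 at 0.11. With the minimum lowered to a mean of 1 count, which moved all genes upward alike, 21 were measured and the median was −0.47. Over the 6 well-mapped members with at least 5000 RNA-seq counts and no footprint minimum it was −0.34. All such genes had −0.53, so there the direction turned. Atf4, the transcription factor of the integrated stress response, had 840 footprints and ratios of −0.16 and −0.11 in progenitors, −0.38 and −0.73 in HFSCs, −0.53 and −0.09 in treated progenitors and 0.23 and 0.20 in treated HFSCs (−0.20 ± 0.34, edgeR adjusted p = 0.159). Atf5 gave −0.48 ± 0.44. Hr, the corepressor hairless, was low at −1.91 ± 0.84, as was Cebpb. A further 20 had at least 50 RNA-seq counts but too few footprints, a condition that itself favours low ratios. Among them Amd1, Odc1 and Slc35a4 had only 0%, 14.2% and 40% unique words. Of the 20, 19 had fewer footprints than the median ratio would give, which the condition fixed in part. The exception was Atf3 with 76 against 50.8. Ppp1r15b had 69 footprints where the median ratio would give 165, Ifrd1 37 against 145, Ddit3 11 against 48.5 and Mief1 6 against 49.3.

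The polyamine pathway could be measured only in part. Of 25 genes, 6 were tested, 2 were called low and 0 high. Their median of −0.17 had no stable sign, since it ran from −1.48 to 0.39 over lysates, was 0.20 without untreated progenitors of mouse 1 and was 0.03 over the 3 well-mapped members. Slc3a2, the heavy chain of amino acid transporters, stood at 0.95 and the spermidine synthase Srm was low at −1.35 with 77.1% unique words. The synthesis enzymes Odc1 and Amd1 had 5 and 0 footprints against means of 7058 and 2706 RNA-seq counts, with 14.2% and 0% unique words. The antizyme Oaz1 had 11 footprints with 8.41% unique words, and Sat1, which acetylates spermidine, had 59 where the median ratio would give 337, with 51.9%. The antizyme inhibitor Azin1 is 98.9% unique and had 6 footprints against an expected 50.9 (exact Poisson 95% interval of the count 2.20 to 13.1).

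Features of the sequence that the ranking had not used were compared across the 1947 well-mapped genes, which are not independent replicates. Coding length followed the ratio most closely, with a Spearman rho of −0.52. The median ratio fell from 0.84 in the shortest of 10 equal groups (153 to 519 bases) to −0.89 in the longest (3909 to 20625 bases). Of 195 genes in the shortest group 81 were called high and 4 low, and of 195 in the longest 0 were high and 83 low. Without the footprint minimum, over 531 abundant genes, rho was −0.43. The shortest of 4 equal groups of these had a median of −0.01 and the longest −1.27. The GC content of the 5′ UTR came next (rho −0.27, 1871 genes with at least 20 bases of 5′ UTR). Its medians were between −0.04 and 0.30 in the first 8 of 10 groups and −0.37 and −0.53 in the last 2, from 73.0% GC. In the last group 57 of 187 genes were low and 4 high. Relative to genes of like coding length rho was −0.25, and among 504 abundant genes without the footprint minimum it was −0.34. Genes without an ATG in the 5′ UTR had a median of 0.09 (1170 genes) and those with 1, 2 or at least 3 had −0.05, −0.08 and −0.09 (rho −0.12). Among the 504 abundant genes without the footprint minimum this rho was −0.28. The length of the 5′ UTR had a rho of −0.16 over 1916 genes. GC content of the coding sequence had a rho of −0.06 over 1947 genes and 3′ UTR length one of −0.09 over 1930.

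**Figure D5:**
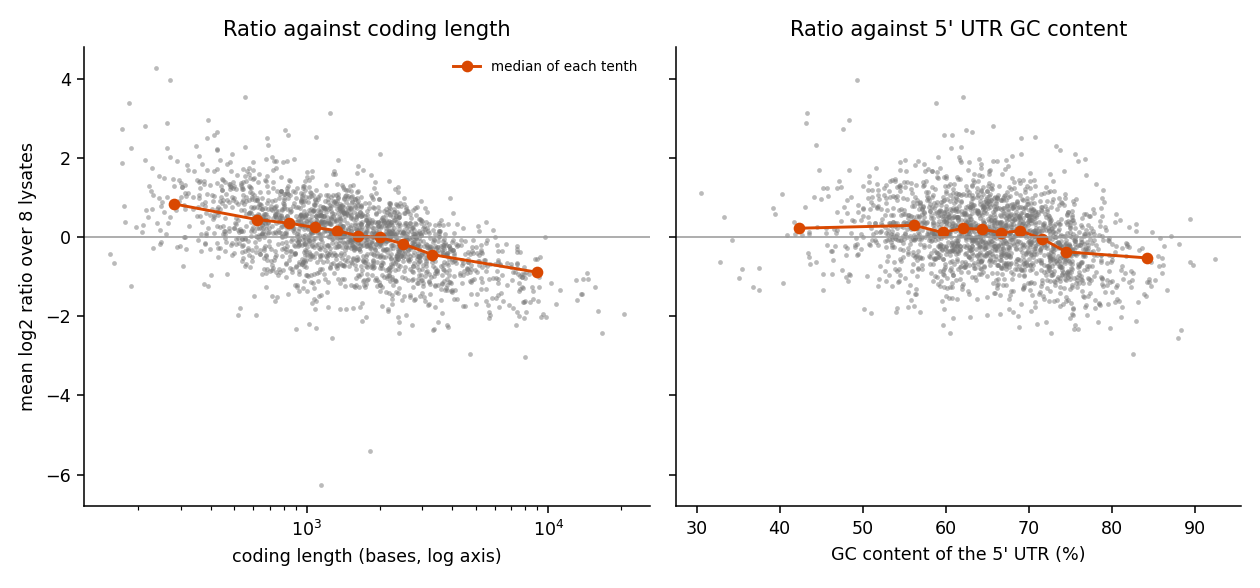
Mean log2 ratio over 8 lysates (vertical) of well-mapped genes against coding length (left, log axis, 1947 genes) and against GC content of the 5′ UTR (right, 1871 genes), 1 grey point per gene, with the median of each of 10 equal groups in orange. The medians fall along the whole range of coding length, from 0.84 to −0.89, but for GC content only in the uppermost groups.

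The order of genes was then compared between groups. Mean ratios of progenitor and HFSC lysates correlated at r = 0.90 across the 2259 genes, and those of untreated and treated lysates at r = 0.89. The edgeR test of the interaction of assay and cell type called 0 genes (0% of 2259) at an adjusted p of 0.05, and 77 (3.41%) at an unadjusted p under 0.05. DESeq2 called 1, Noc4l. Noc4l, a ribosome biogenesis factor with 89 footprints, had the smallest p in edgeR, with a log2 difference (HFSCs minus progenitors) of −2.03 (adjusted p = 0.304). The interaction of assay and treatment called 1 gene (0.0443%) and 134 (5.93%) at an unadjusted p under 0.05. Ptk7, a receptor of the planar cell polarity pathway, had ratios of −0.93 and −1.28 in untreated progenitors and −0.95 and −0.59 in untreated HFSCs. With N1-AcSpd they were −2.37 and −3.11 in progenitors and −2.40 and −2.01 in HFSCs, so the groups did not overlap. The log2 difference (treated minus untreated) was −1.58 (edgeR adjusted p = 0.00941), and with each lysate as a block the adjusted p was 0.0595. Without both treated HFSC lysates it was −1.55 (adjusted p = 0.996), and the counts were 0 by treatment and 0 by cell type, with 93 and 59 genes at an unadjusted p under 0.05. mt-Cytb differed by −3.33 (edgeR adjusted p = 0.386) and with the block passed at 0.0159. Without mouse 1 the genes called by treatment were mt-Cytb, with a difference of −2.78, and mt-Co1, with −1.86. By class, the median of S100 proteins and annexins averaged 1.18 in progenitor and 1.11 in HFSC lysates and that of cytosolic ribosomal proteins −2.89 and −3.00, differences within the range over lysates. Of 46 lists with a tested member, 2 (4.35%) had medians that did not overlap between the 2 cell types, initiation factors lower and ribosome biogenesis factors higher in HFSCs.

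Between treated and untreated lysates, the medians of 2 of the 46 lists (4.35%) did not overlap. That of cytosolic ribosomal proteins was −3.25 to −3.08 in the 4 untreated lysates and −2.87 to −2.54 in the 4 treated ones (averages of −3.17 and −2.72), and in treated progenitors alone it was −2.54 and −2.73. The mitochondrially encoded class differed in the opposite direction, with −5.72 to −3.07 in untreated and −7.60 to −5.82 in treated lysates. S100 proteins and annexins averaged 1.16 in treated and 1.13 in untreated lysates. No test was run on these differences, the lists were singled out after their values were seen, and with 2 mice they are descriptions of 8 lysates.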

How the data were processed

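Deposited transcript counts of 8 Ribo-seq and 8 RNA-seq libraries were used as the authors left them, without scaling. The submitters' processing notes name STAR 2.7.3a, Bowtie 1.2.3, featureCounts and the build GRCm38.p5. Per the study's methods, Ribo-seq reads were freed of adapters, filtered for structural RNA with Bowtie and aligned with STAR. For the RNA-seq libraries they name depletion of ribosomal RNA by hybridization. The counted region and the treatment of reads with several matches are not given in the sources used here. The region was checked on the tables: of 2864 groups of transcripts with 1 coding sequence and different exons, 2852 had equal RNA-seq counts and 2619 equal Ribo-seq counts, so counts were read as lying on the coding sequence. Deposited tables of the authors' own differential translation (fold changes and p-values) were used to pair transcripts with gene names and to check their copy of the counts, which was equal in all 512208 values. None of the comparison values was used.

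Of 64026 transcripts, 1 per gene symbol was kept. Counts became CPM with a prior count of 0.5, and the log2 ratio of each lysate was centred on its median gene. The test was edgeR 4.0.16 (quasi-likelihood, group plus assay over 16 libraries, R 4.3.3), and called genes had an adjusted p under 0.05 and at least 2-fold. DESeq2 1.42.0 and limma 3.58.1 served as alternatives. The tests were run on simulated data first. The labels give each replicate number 1 donor mouse in all 4 groups, which pairs the samples. Deviations of same-numbered samples correlated at −0.71 to 0.83 between groups in RNA-seq, negatively in every pair with treated HFSCs, and at 0.02 to 0.11 in Ribo-seq. p-values measure the spread between lysates of 2 mice. Unique words of 28 bases were counted in GRCm38.p6, and coding sequences came from GENCODE M21. The members and lists were chosen with earlier results of these data known. Genes named by rule are the 12 highest and 12 lowest, over all and over well-mapped genes, the highest, lowest and middle member of each list, genes set by name, the 3 nearest the minimum on each side and those with the smallest p in each interaction. Other members were named after their values were seen. Some members of the ranking are not reported here.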

Additional observations from a re-analysis of the deposited data

Results flagged for a closer look

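Ptk7 drew attention because its footprint-to-message ratio differed between treated and untreated lysates by the test of the difference itself, by −1.58 on the log2 scale (edgeR adjusted p = 0.00941, lower in 4 of 4 treated lysates). It had 198 footprints over 8 libraries. With DESeq2 the difference was −1.59 (adjusted p = 1.67e-05). Without mouse 1 it was −1.61 and without mouse 2 −1.44, neither past the threshold (adjusted p = 0.341 and 0.522). With each lysate as a block it was −1.55 (adjusted p = 0.0595). Without both treated HFSC lysates, a choice made after seeing the data, it was −1.55 (adjusted p = 0.996).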

How the results depend on the processing

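The minimum count set the number of genes and of calls. With a mean of 1 count in both assays, 1011 genes were called high and 1651 low of 8430, with 30 footprints 70 and 86 of 611, and with no fold minimum 734 and 735 of 2259. Leaving out 1 mouse or 1 lysate gave 243 to 279 high and 313 to 346 low. With the replicate block, which pairs the 2 assays of a lysate, 248 and 327 were called, and it changed no call named here except those of Ptk7 and mt-Cytb given with them. DESeq2 called 1 gene by cell type and 6 by treatment, and leaving out mouse 1 or mouse 2 gave 2 and 0 by treatment and 0 and 0 by cell type. Without both treated HFSC lysates, chosen after seeing the data, 0 were called by either. Class medians moved with the members admitted and with the median gene used as centre, which changed with the minimum. With a mean of 1 count they were −3.73 for cytosolic ribosomal proteins, −0.62 for elongation factors, 0.12 for mitochondrial ribosomal proteins, 0.44 for keratins, 1.49 for S100 proteins and annexins and −1.25 for chromatin modifiers. With 30 footprints they were −2.14 for cytosolic ribosomal proteins, −1.23 for elongation factors, 0.79 for S100 proteins and annexins, −0.56 for Notch, Wnt and growth factor signalling and −0.29 for ubiquitin ligases. Over well-mapped genes alone, recentred on their own median, they were −1.48 (ribosomal proteins), −0.30 (elongation factors), −0.81 (TOP messages) and 0.68 (keratins), so the keratin median changed sign. The values given above for well-mapped members keep the centre of all genes tested. Chosen after seeing the data, the RNA-seq minimum alone, under which all 531 genes had −0.53, gave −2.0 for ribosomal proteins, −0.34 for elongation factors, −0.86 for TOP messages, 0.42 for keratins and −1.83 for chromatin modifiers. Also chosen then, centring on genes of like coding length gave −3.58 for ribosomal proteins, 0.14 for mitochondrial ribosomal proteins, 0.90 for S100 proteins and annexins, −0.24 for chromatin modifiers, −0.39 for Notch, Wnt and growth factor signalling and −0.42 for ubiquitin ligases. Of 42 class medians 27 changed sign under at least 1 alternative, most often under the RNA-seq minimum alone (16 of 40), a mean of 1 count (12) and 30 footprints (9 of 39), and 8 did so by coding length. These turns were counted against 0, although the minimum settings moved the centre for all genes. Under the RNA-seq minimum alone the proteasome, at −0.05, turned in sign but stayed above the −0.53 of all 531 genes. The counts are therefore no measure of how stable class directions were. Of the 9 medians of at least 0.5 in size, that of keratins alone changed sign against 0. Under the RNA-seq minimum alone the elongation factors (2 members) stood at −0.34, above the −0.53 of all 531 genes, so their direction turned too. Without 1 mouse or 1 lysate the medians ran from −3.21 to −2.96 for ribosomal proteins, −1.11 to −0.89 for elongation factors, −1.84 to −1.18 for TOP messages, 0.54 to 0.67 for mitochondrial ribosomal proteins, −0.98 to −0.64 for keratins, 1.0 to 1.18 for S100 proteins and annexins, −0.89 to −0.65 for chromatin modifiers, −1.06 to −0.76 for Notch, Wnt and growth factor signalling and −1.15 to −0.96 for ubiquitin ligases. The sign of genes near 0 depended on the setting. Another minimum, or a limit to well-mapped genes, changed the median used as centre and so shifted every gene alike. Such a change of sign says nothing about a single gene. With a mean of 1 count Ankle2 was at 0.062, Rps27l at 0.31, Etf1 at 0.0077, Eef1d at 0.23, Cyc1 at 0.42, Atp5b at 0.42, Anxa7 at 0.24, Lamb3 at 0.36, Itgb1 at 0.39, Trp63 at 0.34 and Atf4 at 0.27. With 30 footprints, which moved these genes down by the same amount, Krt5 was at −0.14, Gspt1 at −0.15 and Slc7a1 at −0.13. With a prior count of 2 Krt5 was at −0.014. Summing over transcripts put Cyc1 at 0.10, Atp5b at 0.11, Lamb3 at 0.032 and Chd1 at −1.20. Ndufv1 was at −0.021 over well-mapped genes and at −0.15 without both treated HFSC lysates (added after seeing the data). Leaving out 1 mouse or lysate, the range was −0.036 to 0.17 for Ndufs1, −0.070 to 0.16 for Ndufv1, −0.27 to 0.19 for Cyc1, −0.16 to 0.085 for Atp5b, −1.30 to 0.20 for Mrpl13, −0.29 to 0.10 for Lamb3, −0.21 to 0.076 for Itgb1, −0.18 to 0.40 for Slc7a1 and −0.62 to 1.13 for Chd1. Apart from the change of centre, the causes of these moves were not tested. A comparison by the share of coding sequence in each transcript was intended and was not run, since the counts lie on coding sequence. Depth limits genes of few footprints: the median SD over lysates was 0.64 for the 1230 genes with 10 to 20 footprints.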
